A study of Mus musculus with 3 samples.

Results

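Fgfrl1 and the receptors Fgfr1, Fgfr2, Fgfr3 and Fgfr4 were followed probe by probe in embryonic mouse kidneys that carry or lack Fgfrl1. The members were the 5 genes of this receptor family, and every probe that bears one of their symbols was taken, which gave 14 of 41174 probes and 5 of 27484 gene symbols on the array. Fgfrl1 had 1 probe, Fgfr1 had 4 probes, and Fgfr2, Fgfr3 and Fgfr4 had 3 probes each. The question was how far the Fgfrl1 signal was reduced in the knock-out pools and whether the signals of the related receptors differed between the genotypes.

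Kidney rudiments of the strain C57BL/6 at E12.5 were either Fgfrl1-/- or wildtype, and the embryos were littermates. Each of 3 pools per genotype was a separate RNA preparation from 6 to 9 rudiments, and each of 3 two-colour Agilent arrays carried 1 knock-out pool labelled with Cy3 and 1 wildtype pool labelled with Cy5. There was no dye swap (0 of 3 arrays), and dye and genotype cannot be told apart. Fgfrl1 was missing from the whole embryo, and which part of the gene was deleted is not given in the sources used here.

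Fgfr1 to Fgfr4 are single-pass receptors that bind fibroblast growth factors through Ig-like loops and signal through a tyrosine kinase inside the cell. Fgfrl1 has a similar extracellular part but lacks the kinase. In the developing kidney, Fgfr1 and Fgfr2 are known for their roles in the mesenchyme and the ureteric bud, and Fgfrl1 is needed for the formation of nephrons.

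The Fgfrl1 probe A_51_P293715 lay at chr5:108946807-108946866 on the plus strand of mm8, the build of the deposited positions. All 3 of its reading frames on that strand were interrupted by a stop codon (0 open frames), and no annotation of mm8 was used to place it in an exon or an untranslated region. The first 30 of its 60 bases are shown because no other probe of these arrays measured Fgfrl1. The place of the probe relative to the deletion is unknown, so that its signal does not check the genotype by itself.
Fgfrl1 A_51_P293715: tttgcagtgacatgtagcgatggctagttg

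Fgfrl1 was lower in the knock-out pool than in the wildtype pool on all 3 arrays. In the knock-out channel the spot had a median brightness of 529, 174 and 252.5 on arrays 1, 2 and 3, which was 26.4, 6.44 and 9.71 times the local background. In the wildtype channel the brightness was 1107, 1173 and 1370, or 19.1, 22.6 and 26.1 times the background. The knock-out spot was well above background on every array, and it was the dimmer of the pair each time.

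After normalization the log2 level of Fgfrl1 was 9.25, 8.22 and 8.20 in the knock-out pools and 10.46, 9.73 and 10.03 in the wildtype pools. The groups did not overlap, and the share of all probes without such an overlap was not counted. The log2 ratio of knock-out over wildtype was -1.21, -1.51 and -1.83, with a mean of -1.52 ± 0.31 (SD, n = 3) and a 95% interval from -1.83 to -1.20. The knock-out signal thus amounted to 43.1%, 35.1% and 28.2% of the wildtype signal, or 34.9% on average with an interval from 28.1% to 43.5%. These are values of 1 array probe, and the study's own qPCR at E12.5 gave a larger fold change for Fgfrl1 than its arrays.

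The 2.86-fold difference of the Fgfrl1 probe passed the test of limma with an adjusted p of 0.0332. Over all probes of the array, 0.398% passed it as lower in the knock-out pools and 0.289% as higher, and 0.109% were at least 2-fold lower. Fgfrl1 ranked 15 among the probes that were lower, and on arrays 1, 2 and 3 taken singly it ranked 32, 24 and 16. The call was lost without array 2 (-1.52, adjusted p = 0.282 by limma) and without array 3 (-1.36, adjusted p = 0.450), settings in which 0 probes of the whole array passed. The p-values measure only the spread between these pools, and limma's moderated test draws the variance of each probe toward that of all probes. For Fgfrl1 the moderated standard error was 0.126. Its p and interval therefore do not follow from its own SD over 3 arrays alone.

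The labelled tissue was checked against markers of its cell types. Well above background in all channels were 8 of 8 genes of cap mesenchyme, 7 of 8 of the renal vesicle, 11 of 12 of the ureteric epithelium and 8 of 8 of the stroma. The exception in the ureteric list was Ret, the receptor of the ureteric tip, whose brightest probe was so in no channel.

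Renal vesicle markers were lower as well. All 8 were lower on average, 5 of 8 passed as lower, and their median was -1.18 on the log2 scale, beside 0.0073 over the brightest probes of all genes, of which 0.488% passed as lower. The study itself listed most of these markers as lowered on the same arrays, so that their count is not independent evidence. Its qPCR at E12.5, a separate measurement, gave lower Wnt4, Fgf8, Lhx1, Pax8, Jag1 and Bmp2. The qPCR fall of Dll1 missed the study's own cutoff, and Ccnd1 was not among its qPCR genes. Of the markers that passed by limma, Bmp2 was well above background in only 1 of 3 knock-out pools. The summed normalised signal of the 8 markers ran from 5364 to 7155 in knock-out pools and from 10762 to 13027 in wildtype pools. In pools of whole rudiments, fewer cells of a type and less RNA per cell cannot be told apart, and the part of the renal vesicles in the Fgfrl1 value was not tested.

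The summed signals of other lists were apart as well. That of cap mesenchyme was lower, from 11555 to 13174 in knock-out and from 15936 to 16622 in wildtype pools, with 1 of 8 genes that passed as lower (Cited1 at -0.78). That of the ureteric epithelium was higher, from 38177 to 49389 against 30316 to 34730, with a median of 0.35 and 9 of 12 genes above 0, although the only gene that passed, Wnt11, was lower at -0.76. In the stroma list 2 of 8 genes passed as higher, Pdgfra and Col1a1, beside 0.346% of all genes. Its median was 0.42, with 6 of 8 genes above 0 and 2 below. The study's own qPCR showed no difference in Col1a1 at E12.5.

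Among cells from outside the nephron lineage, macrophage markers were all above 0 (6 of 6, median 0.45) with a summed signal from 1666 to 2400 in knock-out and from 1280 to 1513 in wildtype pools. Neural markers had a lower sum, from 1489 to 1758 against 2018 to 2360, with a median log2 ratio of -0.10. The sum of erythroid markers was lower too, from 150501 to 154899 against 163329 to 167942, with a median of -0.08. The sums of endothelial markers overlapped. Well above background in all channels were 5 of 6 macrophage, 3 of 6 neural, 6 of 8 erythroid and 7 of 7 endothelial genes. In these 4 lists 0 genes passed by limma, beside 0.833% over the brightest probes of all genes. The part of any of these cells in the values of Fgfrl1 and the receptors was not tested.

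**Figure D1:**
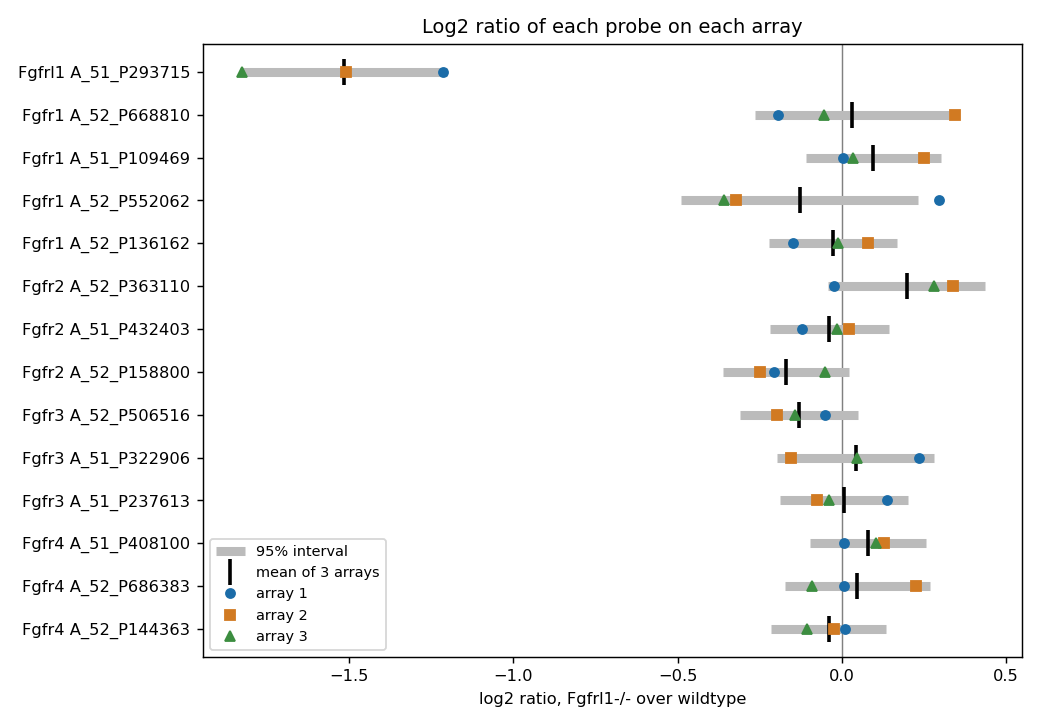
Log2 ratio of Fgfrl1-/- over wildtype for each of the 14 probes (rows), with 1 point per array, the mean of 3 arrays (black bar) and the 95% interval (grey). Fgfrl1 lies between -1.83 and -1.21, whereas the 13 probes of Fgfr1 to Fgfr4 scatter around 0. Probe A_51_P237613 of Fgfr3 stayed near background in both channels.

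None of the 13 probes of Fgfr1 to Fgfr4 passed the same test. The count with an adjusted p below 0.05 was 0 of 13 in limma, beside 0.687% of all probes in either direction, and 0 of 13 had an unadjusted p below 0.05, beside 15.9% of all probes. Among them, A_51_P237613 of Fgfr3, was at background in both channels and is left out of the values that follow. The mean log2 ratios of the other 12 lay between -0.17 and 0.20 with a median of 0.0025, a difference of at most 1.15-fold. Of these, 6 were lower and 6 higher on average, and 4 of 12 had the same direction on every array, beside 38.3% of all probes. The adjusted p-values lay between 0.374 and 0.942. Every one of the 12 intervals included 0, and their outermost bounds were -0.49 and 0.44. A p that misses the threshold does not show that the levels were alike. The width of the interval differed between probes. It ran from -0.22 to 0.14 for A_52_P144363 of Fgfr4 but from -0.49 to 0.23 for A_52_P552062 of Fgfr1. The smallest difference that 3 arrays could detect was not tested.

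On each array the Fgfrl1 ratio lay apart from those of the receptors. Its log2 ratio minus that of the lowest receptor probe was -1.01, -1.19 and -1.47 on arrays 1, 2 and 3. Of the 12 receptor probes above background, 9 turned their direction in at least 1 of 16 alternative settings, whereas Fgfrl1 was lower in all 16.

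Fgfr1, which acts in the metanephric mesenchyme, had 3 probes close together and 1 upstream. Probes A_51_P109469 and A_52_P668810 lay at chr8:27039115-27039174 and chr8:27039136-27039195 of the plus strand and shared 39 bases that differed at 1 position. They are shown because they measure almost the same stretch. The capitals mark the base that differs, the substitution A57G, with the base of A_51_P109469 first and positions counted from its 5′ end.
Fgfr1 A_51_P109469: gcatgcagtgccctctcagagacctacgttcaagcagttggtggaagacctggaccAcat
Fgfr1 A_52_P668810: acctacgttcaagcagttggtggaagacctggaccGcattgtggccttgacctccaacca

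The log2 ratios of A_51_P109469 were 0.0031, 0.25 and 0.03 on arrays 1, 2 and 3 and averaged 0.10 ± 0.14 (SD, n = 3, interval -0.11 to 0.30). Those of A_52_P668810 were -0.19, 0.34 and -0.05, with a mean of 0.03 ± 0.28 (interval -0.26 to 0.33). Both probes were highest on array 2, and their mean difference of -0.06 ± 0.15 (A_52_P668810 minus A_51_P109469) changed sign between arrays. A_52_P136162 at chr8:27035238-27035297 was nearest to 0 of the Fgfr1 probes on average, with -0.15, 0.08 and -0.01 and a mean of -0.03 ± 0.11 (interval -0.22 to 0.17).

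The upstream probe of Fgfr1, A_52_P552062 at chr8:26997829-26997888, varied most between arrays among the 13 receptor probes. Its brightness was 253.5, 83 and 101 in the knock-out channel and 177.5, 234 and 215 in the wildtype channel. The log2 ratio was 0.30 on array 1 but -0.32 and -0.36 on arrays 2 and 3, with a mean of -0.13 ± 0.37 and an interval from -0.49 to 0.23. Array 1 thus went in the opposite direction to the others, and it was also the only array of its slide. Without array 1 the mean was -0.34 and the probe passed (adjusted p = 0.0062 by limma), in a setting in which 18.6% of all probes passed and 10.1% did so as lower.

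Fgfr2, which acts in the ureteric bud and in the mesenchyme, was measured by 3 probes on the minus strand of chromosome 7. A_52_P363110 at chr7:129954346-129954405 had a brightness of 833, 707 and 1020.5 in the knock-out channel and 748, 1264 and 1198 in the wildtype channel. Its log2 ratios were -0.02, 0.34 and 0.28 and averaged 0.20 ± 0.19 (SD, n = 3). Its interval reached from -0.04 to 0.44. It was near 0 on array 1 and higher in the knock-out pool on the other arrays, and without array 1 it passed as well (0.31, adjusted p = 0.0110 by limma), beside 8.49% of all probes that passed as higher in that setting.

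A_51_P432403 of Fgfr2 at chr7:129955089-129955148 stood less than 1 kb from it and gave -0.12, 0.02 and -0.01, a mean of -0.04 ± 0.08 (interval -0.22 to 0.14). A_52_P158800 at chr7:130033600-130033659 lay farther 5′ and is the only Fgfr2 probe for which the files name 1 of the 2 RefSeq transcripts that they name for the other Fgfr2 probes. Its sequence is shown for that reason.
Fgfr2 A_52_P158800: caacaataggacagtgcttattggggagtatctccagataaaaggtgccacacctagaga

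The log2 ratio of A_52_P158800 was -0.21, -0.25 and -0.05, with a mean of -0.17 ± 0.11 (SD, n = 3) and an interval from -0.36 to 0.02. It was lower in the knock-out pool on all arrays. Its spots were dim, with a brightness of 57, 48 and 51.5 in the knock-out channel and 84, 93 and 89 in the wildtype channel. The ratio of A_52_P363110 exceeded it on all arrays, by 0.37 ± 0.20 on average (exact sign permutation test, 2-sided, p = 0.25 over n = 3 arrays, the smallest p that 3 arrays allow). This was 1 of 5 pairs of probes of the same gene compared in this way, and 0.25 was also the p of 2 others. No adjustment could bring any of them below the threshold.

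**Figure D2:**
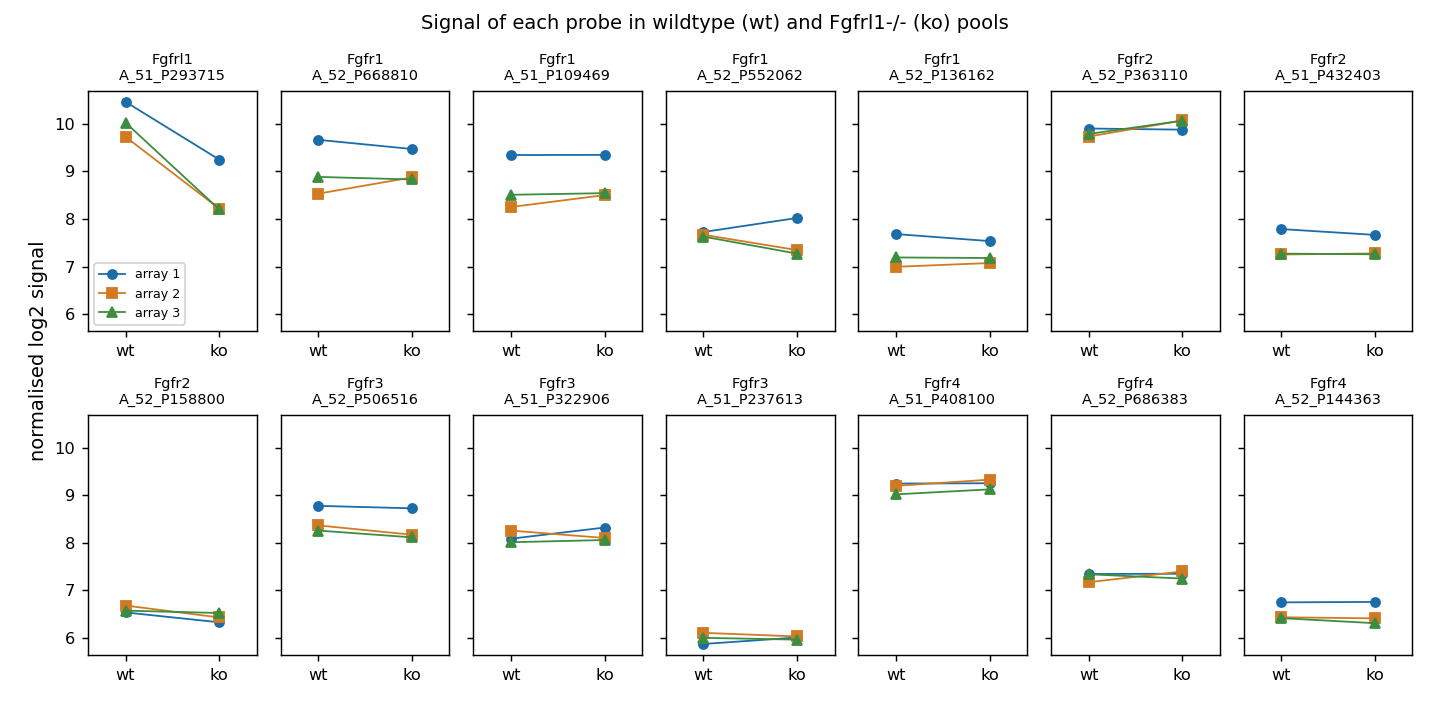
Normalised log2 signal of each probe in the wildtype (wt) and Fgfrl1-/- (ko) pool, with 1 line per array. The Fgfrl1 lines fall on all 3 arrays, from between 9.73 and 10.46 to between 8.20 and 9.25, whereas the mean difference of the receptor probes lies between -0.17 and 0.20. Heights of different probes are not comparable.

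Fgfr3, known best for its role in growth of the skeleton, was represented by 2 overlapping probes and a dim one. A_51_P322906 at chr5:34053107-34053166 and A_52_P506516 at chr5:34053130-34053189 shared 37 bases on the plus strand with 1 difference, T28C, counted from the 5′ end of A_51_P322906 with its base first. The first 30 of the shared bases are given from both probes, with the differing base in capitals.
Fgfr3 A_51_P322906: ggcaTggcagttttgtttgtactggacctg
Fgfr3 A_52_P506516: ggcaCggcagttttgtttgtactggacctg

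The log2 ratios of A_52_P506516 were -0.05, -0.20 and -0.14, with a mean of -0.13 ± 0.07 (SD, n = 3, interval -0.31 to 0.05). Those of A_51_P322906 were 0.24, -0.16 and 0.05, with a mean of 0.04 ± 0.20 (interval -0.20 to 0.28). The first was lower in the knock-out pool on all arrays and the second on 1 array, although the probes overlap, and A_51_P322906 exceeded its neighbour by 0.17 ± 0.12. The brightness of A_51_P237613 at chr5:34052602-34052661 was 27, 32 and 27 in the knock-out channel and 59, 54.5 and 53 in the wildtype channel. On 0 of 3 arrays was it well above background in either channel, and its ratio is not read as a change.

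Fgfr4 had 3 probes on the plus strand of chromosome 13. A_51_P408100 at chr13:55178238-55178297 had log2 ratios of 0.0065, 0.13 and 0.10, which averaged 0.08 ± 0.07 (SD, n = 3, interval -0.10 to 0.26). It was at or above 0 on all arrays. The other two, A_52_P686383 at chr13:55177486-55177545 and A_52_P144363 at chr13:55177621-55177680, carry the accession of a splice variant of Fgfr4 in the files. The former is shown for that reason.
Fgfr4 A_52_P686383: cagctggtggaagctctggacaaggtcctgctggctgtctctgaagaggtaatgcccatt

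A_52_P686383 gave 0.0056, 0.23 and -0.09, a mean of 0.05 ± 0.16 (interval -0.17 to 0.27). A_52_P144363 gave 0.0093, -0.02 and -0.11, a mean of -0.04 ± 0.06 (interval -0.22 to 0.14), with brightness between 44 and 92. Both probes were well above background in all channels, and neither ratio was separated from 0. Whether they tell the variant from other Fgfr4 transcripts was not tested, so that their signal does not show the variant itself.

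Averaged over the probes of a gene, the log2 ratio was -0.0069 ± 0.09 for Fgfr1, -0.0031 ± 0.10 for Fgfr2, -0.03 ± 0.13 for Fgfr3 and 0.03 ± 0.07 for Fgfr4 (SD, n = 3). The outermost bounds of these 4 intervals were -0.21 and 0.19. The adjusted p-values of limma lay between 0.884 and 0.989.

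Probes of Fgfr1 and Fgfr2 were printed on 10 spots of each array, which shows how far single spots scattered within an array. The 10 spots of the Fgfr1 probe A_51_P109469 had an SD between 0.098 and 0.12 on the log2 scale, and its means of the 3 arrays had an SD of 0.14. For the Fgfr2 probe A_51_P432403, the SD was between 0.085 and 0.12 within arrays and 0.08 between their means. A mean of 10 spots varies less than a single spot. The 2 kinds of SD are therefore not directly comparable and do not divide the scatter into parts. The other member probes had 1 spot per array, so that the spread within an array is unknown for them, Fgfrl1 included.

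**Figure D3:**
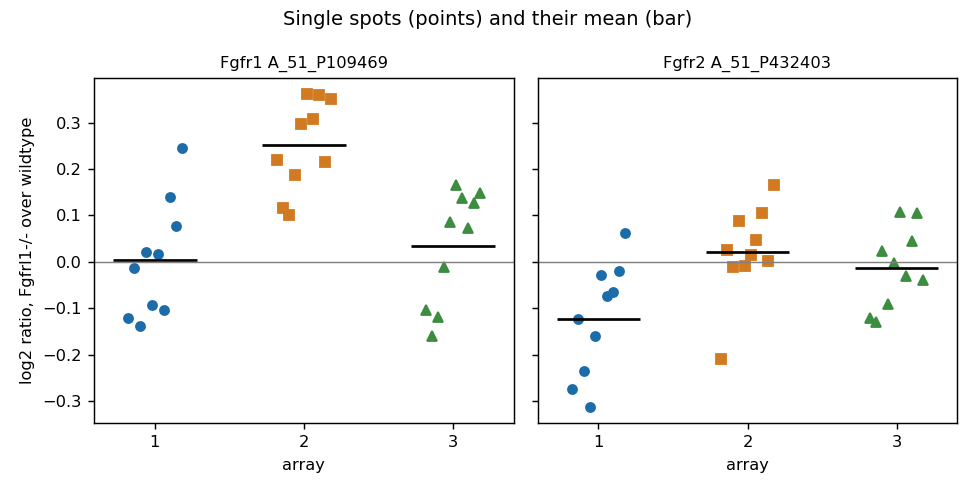
Log2 ratio of Fgfrl1-/- over wildtype of each of the 10 spots of the probes A_51_P109469 (Fgfr1) and A_51_P432403 (Fgfr2) on arrays 1, 2 and 3, with the mean of each array as a bar. The spots of Fgfr1 range from 0.10 to 0.36 on array 2, and those on arrays 1 and 3 spread across 0.

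Arrays 2 and 3 shared a slide, and array 1 was alone on another. Across all probes the log2 ratios of arrays 2 and 3 had a Pearson r of 0.713, whereas array 1 had an r of 0.106 with array 2 and of 0.222 with array 3 (across probes, which are not independent replicates). The median brightness over all probes was between 60 and 97 in the knock-out channel and between 99.5 and 113 in the wildtype channel. Within the slide of arrays 2 and 3 the mean log2 ratio of Fgfrl1 was -1.67, and on array 1 it was -1.21. Array 1 also differed in the version of Feature Extraction. The share well above background on arrays 1, 2 and 3 was 80.2%, 57.1% and 63.9% in the knock-out channel. In the wildtype channel it was 60.9%, 64.9% and 64.7%. Slide and software version cannot be told apart here. The part of the slide, the software or the channel quality in the values of the receptors was not tested.

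By ratio, 5 probes were most like Fgfrl1, measured as the Euclidean distance of the 3 log2 ratios among 22741 probes well above background. They were Hes5, a Notch target, at a distance of 0.338, Dkk1, an inhibitor of Wnt signalling, at 0.372, 1500016L03Rik at 0.406, Bhlhb5, a basic helix-loop-helix factor, at 0.449 and Aldh1a1, an enzyme of retinoic acid synthesis, at 0.472. Hes5 gave -1.17, -1.50 and -1.49 on arrays 1, 2 and 3, and Dkk1 gave -1.38, -1.65 and -1.52. The Dkk1 probe was not the brightest of its gene, and the study reported a larger fall for Dkk1. The likeness is a description over 3 arrays.

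Below the receptors, adaptors such as Frs2 and Grb2 link the kinase to Ras and the MAPK cascade. Of 24 such genes, 0 passed by limma in either direction, beside 0.833% over the brightest probes of all genes. Their median log2 ratio was 0.06. The lowest was Rps6ka3, a kinase at the end of the cascade, with -0.44 ± 0.22 (SD, n = 3, adjusted p = 0.126), and the highest was Gab1, a docking protein, with 0.53 ± 0.21 (adjusted p = 0.0902). Without array 1, 7 of 24 passed, in the setting in which 18.6% of all probes did.

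Co-receptors and other partners outside the cell gave a similar count. Of 9 genes measured, 0 passed by limma and the median was 0.02. Without array 1, 2 of 9 passed, in the setting in which 18.6% of all probes did. Only 5 of 9 were well above background in all channels, and Kl, the co-receptor of the endocrine factor Fgf23, was so on 0 arrays. Among those 5, Fgfbp3, a carrier of fibroblast growth factors, was highest with 0.10 ± 0.09, and the cadherin Cdh2 was lowest with -0.11 ± 0.83. The log2 ratio of Cdh2 was 0.84 on array 1 and -0.43 and -0.73 on arrays 2 and 3, again with array 1 apart.

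Sprouty and Spred proteins dampen receptor signalling and are themselves induced by it. Of 7 genes, 1 passed as lower, beside 0.488% of all genes, and the median was -0.32. Spry1 gave log2 ratios of -1.10, -0.93 and -0.79, which averaged -0.94 ± 0.15 (SD, n = 3, adjusted p = 0.0346 by limma), and was lower on all arrays. It was lower in all of 15 alternatives but missed the threshold in 9, with adjusted p-values of limma from 1.8e-05 to 0.471. These included the settings without array 2 (-0.95, adjusted p = 0.302) and without array 3 (-1.02, adjusted p = 0.471). Without array 1, 4 of 7 genes of the list passed, in the setting in which 18.6% of all probes did. Spry3 was the highest of those well above background, with 0.03 ± 0.11, and it fell below 0 in 4 alternatives. The study itself picked Spry1 from these arrays, so that its array value is not independent evidence. In situ hybridization by the study, at a later age, showed Spry1 reduced or absent in knock-out kidneys.

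Other receptor tyrosine kinases served as a wider comparison. Of 35 genes, 1 passed as higher, beside 0.346% of all genes, and 0 passed as lower. The median was 0.08, and 27 of 35 were above 0 on average. Pdgfra, the receptor of the stroma for platelet-derived growth factor, gave 0.99, 0.95 and 1.13, which averaged 1.02 ± 0.09 (SD, n = 3, adjusted p = 0.0274 by limma). It was higher in all of 15 alternatives but missed the threshold in 7, with adjusted p-values of limma from 4.6e-06 to 0.471. Among these were the settings with each array centred on its median (0.68, adjusted p = 0.213), without array 2 (1.06, adjusted p = 0.253) and without array 3 (0.97, adjusted p = 0.471). Without array 1, 13 of 35 genes of the list passed, in the setting in which 18.6% of all probes did.

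Pdgfrb was the lowest of the kinases that were well above background, with -0.25 ± 0.23. The Pdgfra value stood next to a stroma list of 8 genes, of which Pdgfra was 1. Of the 8, 2 passed as higher, beside 0.346% of all genes. The summed signal of this list was between 123038 and 134040 in knock-out pools and between 84141 and 85469 in wildtype pools. The part of the stroma in the Pdgfra value was not tested.

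**Figure D4:**
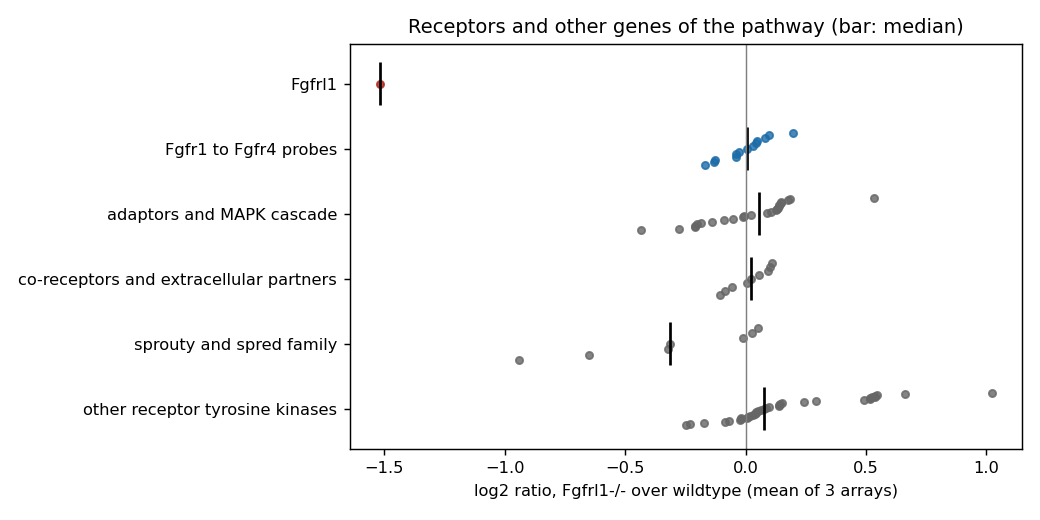
Mean log2 ratio of Fgfrl1-/- over wildtype over 3 arrays (points) for Fgfrl1, the 13 probes of Fgfr1 to Fgfr4 and the brightest probe of each gene in 4 lists, with the median as a bar. The receptors lie between -0.17 and 0.20, Spry1 at -0.94 is the lowest gene of the lists, and Pdgfra at 1.02 is the highest, a value that missed the threshold in 7 of 15 alternatives.

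**Figure D5:**
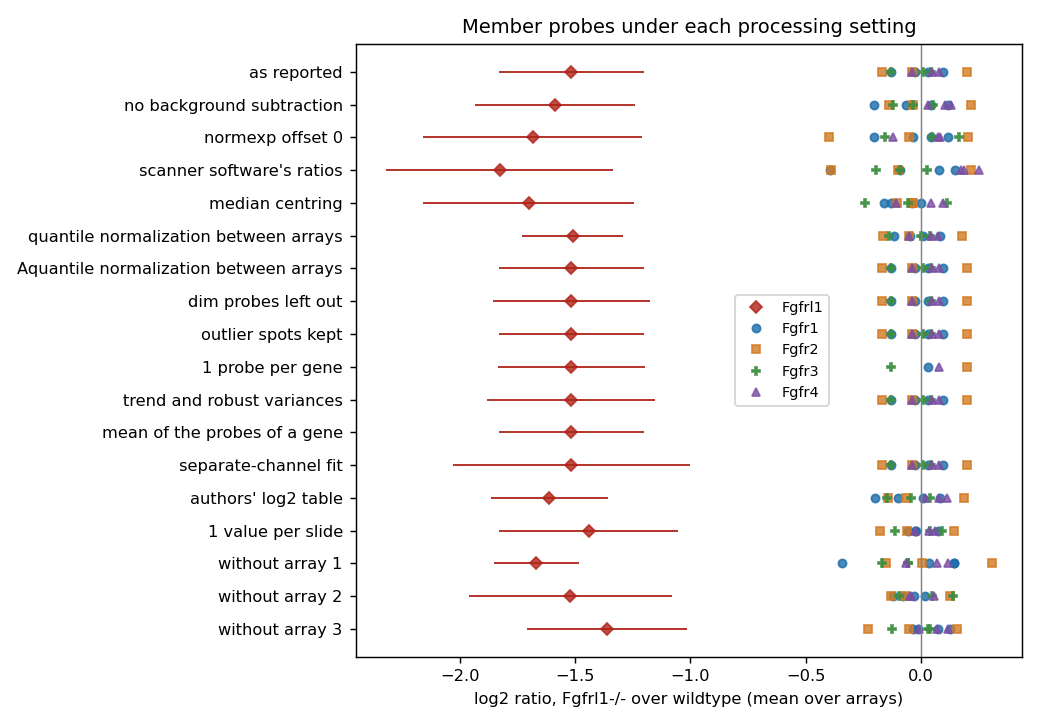
Mean log2 ratio of each member probe (horizontal axis) as reported and under each of 17 alternatives (rows, of which Aquantile normalization leaves ratios as they are), with the 95% interval for Fgfrl1. Fgfrl1 stays between -1.83 and -1.36, and the probes of Fgfr1 to Fgfr4 stay between -0.40 and 0.31.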

How the data were processed

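Array 1 came with Feature Extraction output of version 9.5.3.1 and the other arrays with version 10.5.1.1. In these files the authors deposited median spot and local background brightness as raw intensity, the software's processed intensity, and a log10 ratio of wildtype over knock-out. A separate deposited table gives log2 ratios made in R with Bioconductor, by steps not given in the sources used here. Set against the scanner's values, it ran as knock-out over wildtype.

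Median intensities were corrected with normexp (offset 50) and normalized by loess in limma 3.58.1 (R 4.3.3). Control spots got weight 0 in the loess, and outlier spots were left out after it. Spots of a probe were averaged. Levels in single channels were computed after Aquantile normalization. The log2 ratio of knock-out over wildtype was tested against 0 with limma's moderated test over all 41174 probes, with Benjamini-Hochberg adjustment, which pairs both pools of an array. The number of arrays limits the precision. List genes were represented by their brightest probe, and Kal1 was left out because its name led to another gene. Named were all member probes, list genes that passed, the lowest and highest well-above-background gene of each pathway list, and the 5 probes most like Fgfrl1. Members and lists were chosen with earlier results of these data known. The fit was tested on simulated data.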

Additional observations from a re-analysis of the deposited data

How the results depend on the processing

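Aquantile normalization leaves ratios unchanged by construction and is not counted here. Over the 16 other alternatives the log2 ratio of Fgfrl1 stayed between -1.83 and -1.36, its interval lay below 0 in all 16, and it passed in 10. Some of these change only the variance or the probes tested, so that the ratio itself could not move. It missed the threshold with a normexp offset of 0 (-1.68), with the scanner software's ratios (-1.83), with trend and robust variances (-1.52) and with 1 value per slide (-1.44), and with single arrays left out it ranged from -1.67 to -1.36. The receptor probes passed in 0 cases with the exception of the setting without array 1, so that their count ranged from 0 to 2 with single arrays left out. The values of the 12 above background stayed between -0.40 and 0.31 (at most 1.32-fold), with interval bounds from -1.29 to 0.76. With the scanner software's ratios 4 of 13 had an unadjusted p below 0.05, and with the separate-channel fit 2 did.

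The number of probes of the whole array that passed in limma was 283, and became 0 with a normexp offset of 0 (4852 at an unadjusted p below 0.05), 0 with the scanner's ratios (6118), 0 with 1 value per slide (3450), 93 with median centring, 65 with quantile normalization, 41 with dim probes left out, 6 with trend and robust variances, 460 with the separate-channel fit and 36 with the authors' table. With single arrays left out it ranged from 0 to 7666 (7666 without array 1, and 0 without array 2 or 3, where 3712 and 3141 had an unadjusted p below 0.05). Of the calls, 58.0% were lower in the knock-out pools, but 97.8% with median centring and 76.9% with quantile normalization.

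Directions turned without background subtraction for Fgfr3 A_51_P237613 (-0.035), Fgfr4 A_52_P144363 (0.030) and Spry3 (-0.017). They turned with the scanner's ratios for Fgfr3 A_51_P322906 (-0.092), Fgfr4 A_52_P144363 (0.25) and Spry3 (-0.13). They turned with median centring for Fgfr1 A_52_P668810 (-0.13), Fgfr1 A_51_P109469 (-0.040), Fgfr1 A_52_P136162 (0.00064), Fgfr2 A_52_P363110 (-0.036), Fgfr3 A_51_P322906 (-0.056), Fgfr4 A_51_P408100 (-0.11) and Fgfr4 A_52_P144363 (0.095). They turned with the authors' table for Fgfr3 A_51_P237613 (-0.042), Fgfr4 A_52_P144363 (0.015) and Spry3 (-0.017). They turned with 1 value per slide for Fgfr1 A_52_P668810 (-0.024) and Cdh2 (0.13). With single arrays left out, directions also turned, for Fgfr1 A_52_P668810 (from -0.12 to 0.14), Fgfr1 A_52_P136162 (from -0.080 to 0.034), Fgfr2 A_51_P432403 (from -0.068 to 0.0043), Fgfr3 A_51_P322906 (from -0.054 to 0.14), Fgfr3 A_51_P237613 (from -0.057 to 0.049), Fgfr4 A_52_P686383 (from -0.043 to 0.12), Cdh2 (from -0.58 to 0.21) and Spry3 (from -0.029 to 0.082). Fgfr3 A_51_P237613 was at background, and its sign carries no information. The causes were not tested. Over 395 values of single probes, 310 kept their direction and side of the threshold, 52 no longer passed, 6 passed newly and 27 turned.

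Not run were mean spot signals, which only the file of array 1 holds, and the slide as a random block, whose correlation could not be estimated. The test reported is itself paired by array, and the separate-channel fit, with an intraspot correlation of 0.45, was its alternative.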
